A study of Schizosaccharomyces pombe with 261 samples.

Results

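The genes described are the 44 fission yeast (Schizosaccharomyces pombe) genes whose annotated product name contains the word proteasome. All 44 such names in the reference annotation matched an identifier among the 7015 in the mRNA-seq count files. They fall into 7 alpha and 7 beta subunits of the core particle, 6 ATPases and 5 other subunits of the base, 10 lid subunits, 5 assembly factors and 4 other members. Classes come from the product text, the symbol or textbook knowledge of the subunit, not from values. SPCC18.17c, annotated as a non-ATPase regulatory subunit, was placed among the other members, so counts of subunits leave it out. All 44 passed the filter on low counts, which kept 6172 genes.

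The proteasome is the protease that degrades proteins tagged with ubiquitin. Its core particle is a barrel of stacked rings of alpha and beta subunits, and the beta rings carry the proteolytic sites. A regulatory particle caps the barrel: the base holds a ring of ATPases that unfold the substrate and thread it into the core, and the lid removes the ubiquitin chain. Dedicated chaperones assemble both particles, and heat raises the load of misfolded proteins that this machine clears.

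The study grew cells at 30 °C and moved them to 37.5 °C, and 39 of its 261 samples are mRNA-seq libraries, 3 in each of 13 groups. In series RNA3 the labels give a deletion of atf1 or of pcr1, each replaced by KanMX6 and sampled at 0 and 5 min, and one of clr4, replaced by NatMX6 and sampled at 0, 2.5 and 5 min. Wild type (WT) was sampled at 0, 5 and 25 min in series RNA1 and at 0, 2.5 and 5 min in series RNA2. Every strain, WT included, is h+ and carries the ade6-DN/N, leu1-32 and ura4-DS/E alleles with a ura4+ marker at imr1L and an ade6+ marker at otr1R. Atf1 and Pcr1 form a bZIP transcription factor of the stress response, and Clr4 methylates histone H3 in heterochromatin. Whether the 3 replicates of a group came from separate cultures, or a deletion from 1 clone, is not stated, so p-values measure only the spread between these libraries.

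Libraries held 6573143 to 12588425 counts in genes. The deleted genes did not check the labels cleanly. In the libraries labelled clr4Δ, clr4 averaged 175 CPM (counts per 1000000 in genes, with edgeR's TMM scaling) at 0 min, against 51.1 CPM in WT RNA1 and 43.7 CPM in WT RNA2. In those labelled atf1Δ, atf1 averaged 128.5 CPM at 0 min, against 130.5 CPM in WT RNA1 and 213 CPM in WT RNA2, so before heat its level did not set the label apart from WT RNA1. At 5 min it averaged 168 CPM in those labelled atf1Δ, against 718 CPM in WT RNA1 and 572 CPM in WT RNA2. In those labelled pcr1Δ, pcr1 averaged 42.3 CPM at 0 min, against 64.1 CPM in WT RNA1 and 71.7 CPM in WT RNA2, and 53.3 CPM at 5 min, against 363 CPM in WT RNA1 and 289.9 CPM in WT RNA2. The genotypes are therefore given as labels throughout. Since series RNA3 has only libraries with deletion labels, a label and its series cannot be told apart in any comparison with WT.

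In unheated WT most subunits stood at a similar level per length. The 14 core genes ranged from 93.0 to 244 CPM per kb of gene in series RNA1 and from 104 to 254 CPM per kb in series RNA2. The highest in both series was scl1, the alpha 1 subunit, at 244 and 254 CPM per kb. The ATPases lay between 94.4 and 156 CPM per kb in RNA1. Assembly factors were lower, with a median of 37.2 CPM per kb in RNA1 and 33.2 CPM per kb in RNA2. The maturation factor ump1, at 101 CPM per kb in RNA1, was the exception among them. The lowest member was fub2, a gene of the PI31 family of proteasome regulators, with 2, 5 and 2 counts in the libraries of RNA1 at 0 min and 5, 8 and 2 counts in those of RNA2. At such counts its changes with heat were not detectable.

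After 5 min at 37.5 °C in WT of series RNA1, 33 of 44 members rose and 1 fell (edgeR quasi-likelihood test, adjusted p under 0.05). Of all genes tested 24.9% were called higher and 23.5% lower. The median log2 fold change of the members was 0.42, that of all genes 0.00. All 14 core genes rose (median 0.42), as did all 6 base ATPases (median 0.60). Of the base subunits without ATPase activity 3 of 5 rose, and of the lid 7 of 10. Of the assembly factors 2 of 5 rose, ump1 (0.44, SE 0.08) and pac4 (0.41, SE 0.10), while pac3, its partner chaperone of the alpha ring, stood at -0.07 (SE 0.10, adjusted p = 0.592). Of the other members 1 rose and 1 fell. Scaled to library totals instead, 18 rose and 2 fell. That scaling lowered the median of all genes by 0.21, and the members then had a median of 0.21 above zero. A change of scaling moves all genes of a comparison by nearly the same amount. The distance between these medians was thus fixed in advance and is no check of the rise.

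The largest rise of a subunit at 5 min was that of rpt6, an ATPase of the base ring (SPBC23G7.12c, chromosome II, 2121444 to 2122817, minus strand, ASM294v2). Its level in WT RNA1 was 116, 139 and 122 CPM at 0 min, 209, 252 and 227 CPM at 5 min, and 235, 273 and 257 CPM at 25 min. Heated and unheated libraries did not overlap. The log2 change was 0.87 (SE 0.09, adjusted p = 1e-09) at 5 min and 1.02 (SE 0.09) at 25 min. The lid gene rpn11 (SPAC31G5.13, chromosome I, 3010632 to 3012307, plus strand), encodes the protease that cleaves the ubiquitin chain from the substrate. It had 239, 247 and 210 CPM at 0 min, 414, 432 and 403 CPM at 5 min, and 466, 484 and 463 CPM at 25 min. Its log2 change was 0.84 (SE 0.10, adjusted p = 7.59e-09) at 5 min and 1.02 (SE 0.10) at 25 min, with no overlap of heated and unheated libraries. The ATPase with the smallest change, rpt1, still rose by 0.41 (SE 0.07, adjusted p = 1.21e-05).

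Changes at 5 min lay between 0.17 and 0.60 in the core and between 0.41 and 0.87 among the ATPases. At the top were pre10, an alpha subunit, at 0.56 (SE 0.07) and pre3, a catalytic beta subunit, at 0.60 (SE 0.09). At the bottom were scl1 at 0.17 (SE 0.06, adjusted p = 0.0174) and pup1, another catalytic beta subunit, at 0.21 (SE 0.07, adjusted p = 0.0131). The calls of these last genes each rest on single libraries. Without replicate 2 at 0 min or replicate 3 at 5 min scl1 was no longer called (0.14 and 0.15), nor was pup1 without replicate 1 at 5 min (0.17). With all libraries kept, scl1 was also not called when the 0 and 5 min groups were fitted alone (0.17). Among the remaining base subunits, rpn2, a scaffold of the base, had 643, 689 and 666 CPM at 5 min, against 446, 444 and 430 CPM at 0 min, a log2 change of 0.60 (SE 0.08, adjusted p = 1.02e-07). By contrast rpn1301, a ubiquitin receptor, had 76.2, 78.0 and 76.2 CPM at 5 min, against 76.0, 74.5 and 72.7 CPM at 0 min. Its log2 change of 0.05 (SE 0.07, adjusted p = 0.642) was not called, and in the lid that of dss1, the smallest subunit, was 0.11 (SE 0.10, adjusted p = 0.387).

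**Figure D1:**
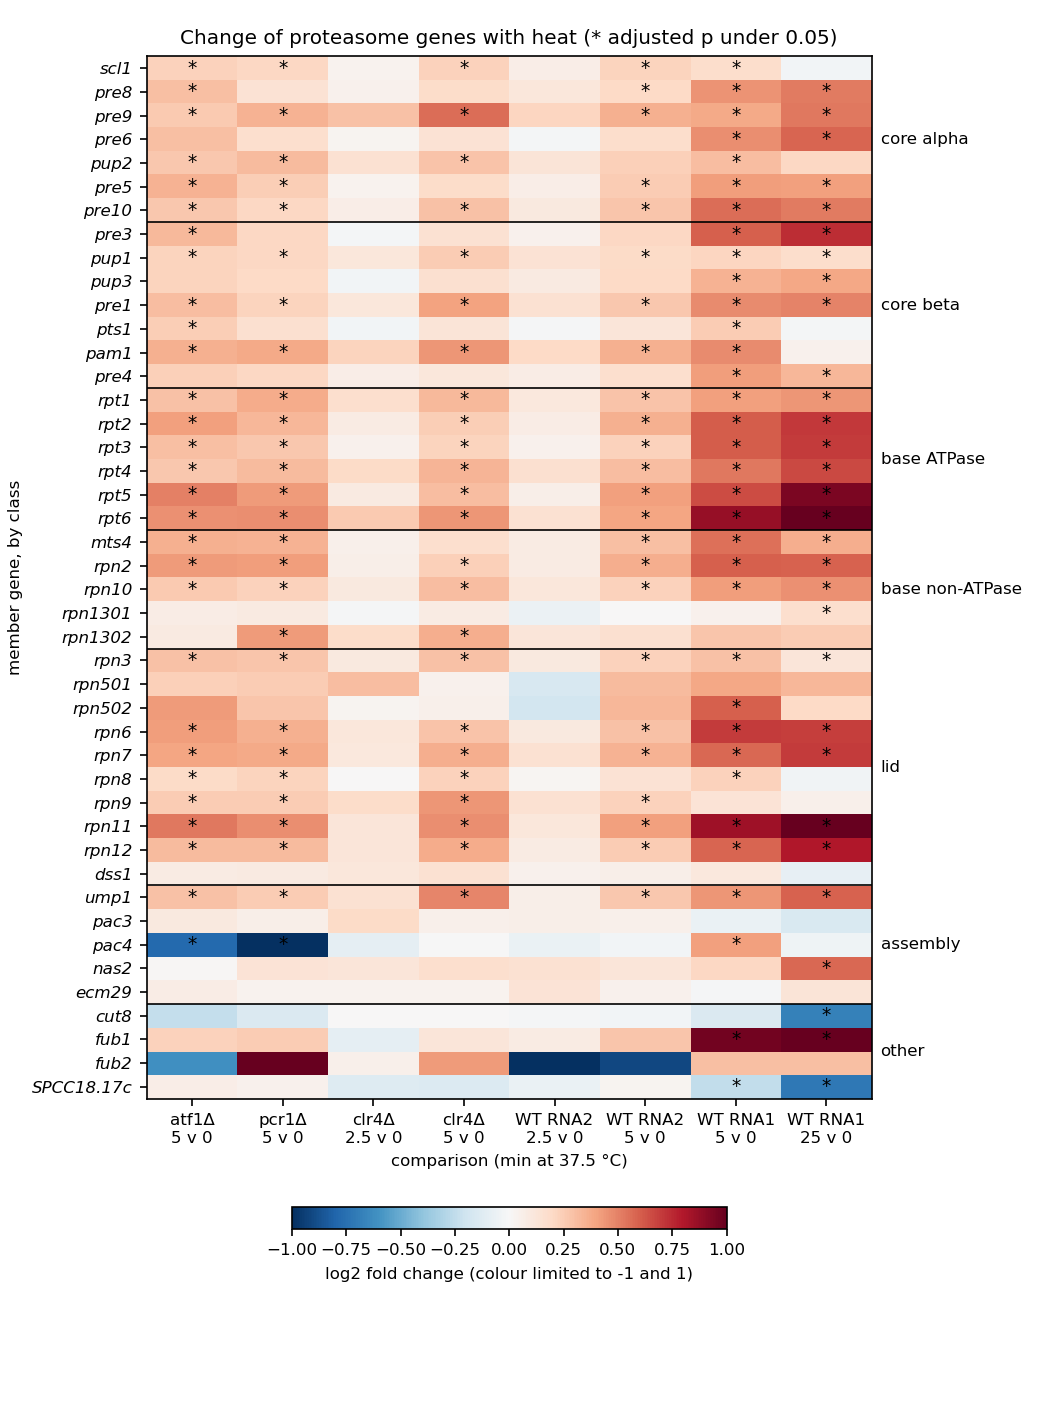
Log2 fold change (colour) of each of the 44 proteasome genes (rows, by class) in 8 comparisons of heated with unheated libraries of the same course (columns, times in min). Stars mark adjusted p under 0.05 in edgeR. The 6 base ATPases carry a star in every 5 min column, no gene does at 2.5 min, and pac4 has the only starred blue cells in the columns atf1Δ and pcr1Δ. The strong colours of fub2, which has 0 to 23 counts per library, carry no star.

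At 25 min 28 members were above and 2 below their 0 min level, where 33.9% of all genes were called higher and 33.5% lower. The median was 0.40, against 0.02 for all genes. The 6 ATPases were all called higher again (median 0.70), with 10 of 14 core genes, 4 of 5 other base genes and 5 of 10 lid genes. The largest changes in the core were those of pre3 (0.74, SE 0.09) and pre6, an alpha subunit (0.58, SE 0.12). The core genes scl1 (-0.03, SE 0.06) and pts1, the beta 5 subunit (-0.02, SE 0.08), had adjusted p values of 0.685 and 0.831. Assembly factors called higher were ump1, at 0.59 (SE 0.08, adjusted p = 1.56e-07), and nas2, a chaperone of the base, at 0.57 (SE 0.13, adjusted p = 2.38e-04). The values of pac3 (-0.15, SE 0.10) and of dss1 in the lid (-0.08, SE 0.10) were not called. The call of rpn1301 at 25 min (0.17, SE 0.07, adjusted p = 0.0341) was lost with DESeq2 (0.15) and when replicate 2 or 3 was left out, at 0 min (0.17 and 0.15) or at 25 min (0.15 and 0.14). That call was also lost with the size factors of DESeq2 or no filter on low counts (0.15 in each), and fitted on these groups alone (0.155).

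Between 5 and 25 min members were called less often than genes in general, in both directions. At 25 min 4 were higher and 8 lower than at 5 min, where 28.4% of all genes were called higher and 29.6% lower, and the median change was 0.00. Those that rose in this interval were fub1, nas2 (0.36, SE 0.13), rpt5 (0.29, SE 0.08) and the lid gene rpn12 (0.22, SE 0.09). Those that fell included the beta 6 subunit gene pam1. It had 112, 116 and 116 CPM at 0 min, 164, 166 and 148 CPM at 5 min, and 121, 116 and 118 CPM at 25 min. Its level at 5 min stood above both other times in every library, and the change of -0.43 (SE 0.08, adjusted p = 5.53e-05) from 5 to 25 min came with one of 0.05 (SE 0.08, adjusted p = 0.653) from 0 to 25 min. The other members that fell were scl1, pts1, rpn3, rpn8, pac4, cut8 and SPCC18.17c. With replicates as a block 12 rose and 11 fell, and when scaled to library totals, which raised the median of all genes by 0.27, 26 rose and 1 fell. The calls of rpn12 and nas2 were lost without single libraries: rpn12 without replicate 1 at 5 min (0.21), replicate 3 at 5 min (0.18), or replicate 1 (0.21) or replicate 2 (0.20) at 25 min, and nas2 without replicate 1 at 5 min (0.22) or replicate 3 at 25 min (0.31). With all libraries kept, rpn12 was also not called with DESeq2, with its size factors or with no filter on low counts (0.20 in each).

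Of the 4 members not placed in a class of the particle or its assembly, 1 was higher and 2 were lower at 25 min than at 0 min, and fub2 was not called. The PI31-type inhibitor gene fub1 (SPAC15E1.10, chromosome I, 3732274 to 3733363, plus strand) had 12.2, 10.4 and 12.9 CPM at 0 min, 23.3, 22.2 and 23.9 CPM at 5 min, and 46.1, 49.0 and 49.97 CPM at 25 min in RNA1. It rose at each step without overlap, with a log2 change of 0.96 (SE 0.16, adjusted p = 4.6e-06) at 5 min and 2.03 (SE 0.15, adjusted p = 1.71e-13) at 25 min, the largest of any member. SPCC18.17c (chromosome III, 1986334 to 1988310, minus strand), annotated as a non-ATPase regulatory subunit, had 79.6, 81.9 and 69.5 CPM at 0 min, 59.8, 62.9 and 72.5 CPM at 5 min, and 45.9, 47.1 and 47.7 CPM at 25 min. The libraries at 0 and 5 min overlapped, and those at 25 min lay below all others. The change was -0.25 (SE 0.09, adjusted p = 0.0259) at 5 min and -0.72 (SE 0.09, adjusted p = 3.51e-08) at 25 min. The call at 5 min was lost when replicate 1 (-0.23) or 2 (-0.20) of the 0 min libraries was left out, and likewise replicate 1 (-0.20) or 2 (-0.24) of the 5 min libraries. That call was also lost when the 0 and 5 min groups were fitted alone (-0.25). Cut8, which tethers the proteasome to the nucleus, is encoded by a gene with 84.4, 88.6 and 86.5 CPM at 25 min, against 141, 133 and 142 CPM at 0 min. It fell by 0.68 on the log2 scale (SE 0.10, adjusted p = 3.18e-07), with no overlap between these libraries.

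Series RNA2 followed the first minutes more closely. At 2.5 min 0 of 44 members were called, where 1.73% of all genes were called in either direction by edgeR. DESeq2 also called 0, and 6 had an unadjusted p under 0.05, for which the share of all genes was not counted. The log2 change was positive for 35 of 44 members, with a median of 0.08 against 0.01 for all genes. With replicates as a block 4 members were called, all higher. Between 2.5 and 5 min 5 members rose and 0 fell (7.42% of all genes higher, 6.09% lower): rpt5 (0.35, SE 0.08), rpn11 (0.30, SE 0.10), rpn2 (0.28, SE 0.08), rpt2 (0.27, SE 0.08) and rpn7 (0.20, SE 0.06). This count rests on single libraries. Leaving out replicate 1 at 5 min or replicate 2 at 2.5 min gave 1, leaving out replicate 3 at 2.5 min gave 2, and leaving out replicate 3 at 5 min gave 12. With replicates as a block it was 19, where 1557 of all genes were called in either direction. Fitted on these libraries alone 0 members were called, and scaled to library totals 1. From 0 to 5 min 24 members rose and 0 fell, where 14.1% of all genes were called higher and 13% lower, and the median change was 0.23. The 6 ATPases, 8 of 14 core genes, 6 of 10 lid genes and ump1 were among them. Scaled to library totals 6 rose, with the median of all genes at -0.11, and fitted on these libraries alone 11 rose.

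At 5 min 23 members rose in both WT series, at different sizes. The share of all genes that rose in both was not counted. The ATPase gene rpt6 had 187, 187 and 165 CPM at 5 min in RNA2, against 142, 137 and 130 CPM at 0 min, a change of 0.40 (SE 0.09, adjusted p = 0.00102) where RNA1 gave 0.87. The inhibitor gene fub1 had 17.6, 14.2 and 13.4 CPM at 5 min in RNA2, against 14.9, 11.23 and 11.20 CPM at 0 min. These libraries overlapped, and its change of 0.28 (SE 0.16, adjusted p = 0.229) was not called. Across the 43 members other than fub2, the changes at 5 min in the 2 series, which share no library, had a Pearson r of 0.778 and a Spearman rho of 0.755, given as a description of these genes. With fub2 included the values were 0.485 and 0.752. The change was larger in RNA1 for 38 of the 44 members.

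The difference between the WT series in the change at 5 min was then tested itself. It was called for 5 members, all with the larger rise in RNA1, where 6.87% of all genes were called in that direction and 2.41% in the other: rpt6 (0.47, SE 0.13, adjusted p = 0.0156), rpn11 (0.43, SE 0.14), rpn6 (0.41, SE 0.10), pre3 (0.39, SE 0.12) and rpt3 (0.37, SE 0.11). With replicates as a block it was 17, where 1406 of all genes were called in either direction. The count ran from 1 to 8 as single libraries were left out. It was 1 without replicate 2 of RNA1 at 5 min or replicate 3 of RNA2 at 5 min, 3 without replicate 1 or 3 of RNA1 at 0 min or replicate 1 of RNA1 at 5 min, and 8 without replicate 1 of RNA2 at 5 min. The call of rpn6 held in all 12 fits that left out 1 library. That of rpt6 was lost in 2 of 12, without replicate 2 of RNA1 at 5 min (0.39) or replicate 3 of RNA2 at 5 min (0.41). The call of rpt3 was lost in 4 (0.31 to 0.35), without either of these or replicate 1 or 3 of RNA1 at 0 min. The call of pre3 was lost in 7 of 12 (0.26 to 0.41) and that of rpn11 in 8 of 12 (0.37 to 0.45). Scaled to library totals, and fitted on these groups alone, 0 were called. The series also differed before heat. At 0 min 1 member was higher and 9 were lower in RNA1 than in RNA2, where 9.75% of all genes were called higher and 13.9% lower. The largest of these was rpn11, with 239, 247 and 210 CPM in RNA1, against 355, 327 and 347 CPM in RNA2 (-0.57, SE 0.10, adjusted p = 8.45e-05). The count at 0 min was 6 without replicate 1 of RNA2 and 5 without its replicate 2. What differed between the series besides their names is not given in the sources used here.

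**Figure D2:**
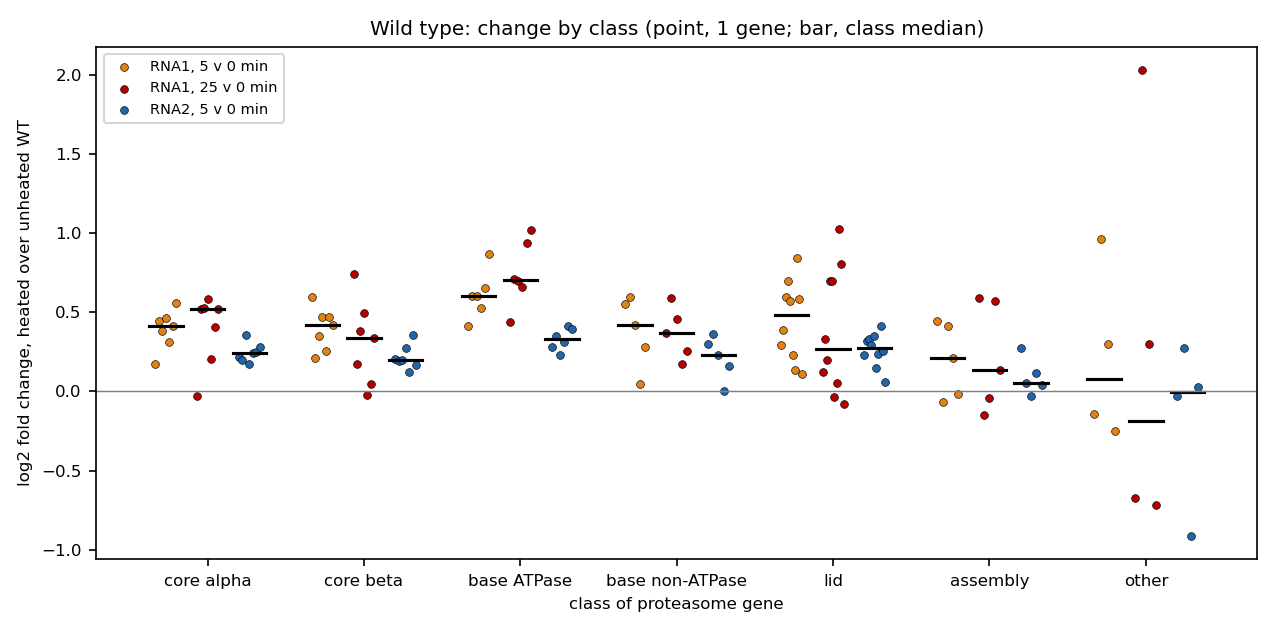
Log2 fold change of heated over unheated WT (vertical axis) for the proteasome genes of each class (horizontal axis), with 1 point for each gene and a bar at the class median. The ATPase medians are the highest of the 7 classes in each of the 3 comparisons (0.60, 0.70 and 0.33), and the class of other members spans the widest range.

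As a share of all counts in genes, the 44 members together took 0.734% (SD 0.0234, n = 3) at 0 min, 0.862% (SD 0.0125) at 5 min and 1.04% (SD 0.0126) at 25 min in WT RNA1. In RNA2 the shares were 0.785% (SD 0.0393) at 0 min, 0.816% (SD 0.0287) at 2.5 min and 0.866% (SD 0.0622) at 5 min. The RNA1 groups did not overlap, ranging from 0.711 to 0.758% at 0 min, from 0.848 to 0.872% at 5 min and from 1.03 to 1.06% at 25 min. In RNA2 they did overlap. In the libraries labelled atf1Δ the share was 0.957% (SD 0.0187) at 5 min and 0.879% (SD 0.0146) at 0 min. In those labelled pcr1Δ it was 0.905% (SD 0.0219) at 5 min and 0.805% (SD 0.00776) at 0 min. In those labelled clr4Δ it was 0.752% (SD 0.0174) at 0 min, 0.801% (SD 0.029) at 2.5 min and 0.859% (SD 0.0691) at 5 min. A share is taken on library totals. On that scale the median log2 change from 5 to 25 min in RNA1 was 0.26 for members and 0.27 for all genes. In that interval the median member thus did not gain on the median gene. A share of counts says nothing of the amount of RNA per cell, which these data do not measure.

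**Figure D3:**
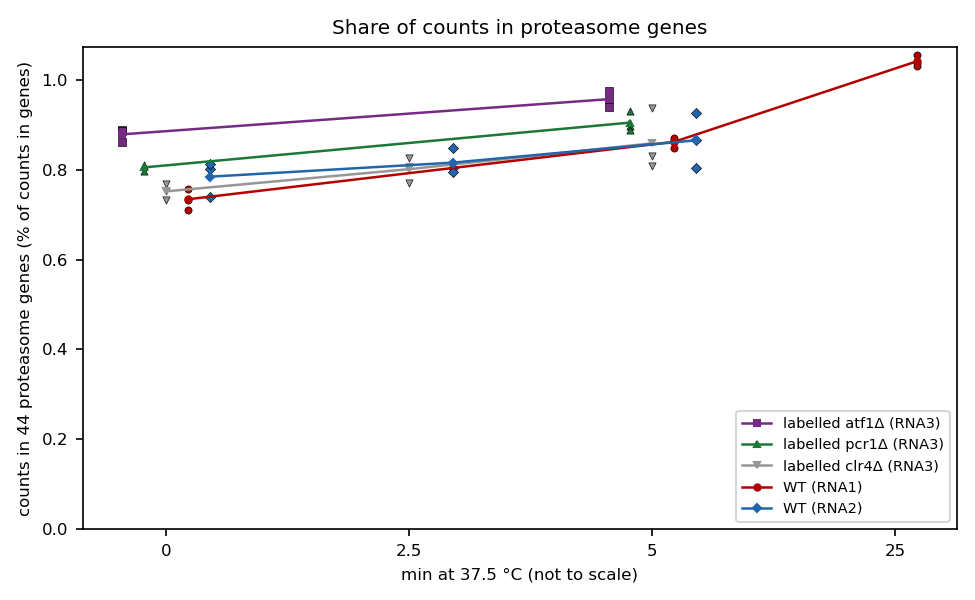
Percentage of counts in genes that fell on the 44 proteasome genes (vertical axis, from 0) by time at 37.5 °C (horizontal axis, not to scale), with 1 point for each library and lines through group means. The mean share is higher at each later time in all 5 courses, highest at 25 min in WT RNA1 (1.04%), and the libraries labelled atf1Δ lie above the other groups at 0 min. Scaled to library totals, the median of all genes also rose from 5 to 25 min in WT RNA1, by 0.27 on the log2 scale.

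The lid subunit Rpn5 is encoded by a pair of near copies, rpn501 and rpn502, and few of their reads enter the counts. Their coding sequences are 1332 bases each and identical at 1330 of them (99.85%), and reads that map to several places were set apart from the genes in the count files. In unheated WT RNA1 the counts gave 15.03 CPM for rpn501 and 26.3 CPM for rpn502. The second table deposited by the authors, a summed read depth per gene for 18 libraries, holds 2077 units of signal per count for rpn501 and 1160 for rpn502, which is 41.7 and 23.3 times the 49.8 of the median gene. On that signal rpn501 rose by 0.29 (SE 0.10, adjusted p = 0.0346 in limma) from 0 to 5 min in WT RNA2, and by 0.34 (SE 0.10, adjusted p = 0.0132) in the libraries labelled clr4Δ. The values of rpn502 were 0.29 and 0.34, and the same reads can enter both genes. From the unique counts neither gene was called in these comparisons, and the change of rpn502 in RNA1 at 5 min was 0.60 (SE 0.20, adjusted p = 0.0112).

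The proteasome response to heat was present in the libraries with deletion labels. At 5 min 28 members rose and 1 fell in those labelled atf1Δ (12.6% of all genes higher, 17.3% lower). For pcr1Δ the counts were 26 and 1 (12.5% and 14.9% of all genes), and for clr4Δ 24 and 0 (16.2% and 14%). Median changes were 0.27, 0.25 and 0.24. Scaled to library totals the counts were 7 and 2 for atf1Δ, with the median of all genes at -0.18, 9 and 1 for pcr1Δ, and 15 and 0 for clr4Δ. Fitted on its own libraries alone, the comparison for clr4Δ gave 8. The 6 ATPases rose in all 5 courses. Of all members 20 rose at 5 min in every course, among them scl1, pre9 and pre10 of the alpha ring, pup1, pre1 and pam1 of the beta ring, rpn2 and rpn10 of the base, rpn3, rpn6, rpn7, rpn11 and rpn12 of the lid, and ump1. The share of all genes that rose in every course was not counted, so these counts cannot be set against other genes. They hold for the TMM scaling in the fit of all groups. Scaled to library totals only 6 members rose in WT RNA2, so at most 6 would then rise in every course. Among the members checked singly in WT RNA1, that scaling ended the calls of scl1 (-0.04), pup1 (0.00), the ATPase gene rpt1 (0.20) and ump1 (0.23). At 2.5 min 0 members were called in the libraries labelled clr4Δ (1.57% of all genes in either direction), and 6 had an unadjusted p under 0.05. DESeq2 called 1, edgeR called 1 without replicate 3 at 0 min, and with replicates as a block 6 were called, all higher.

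Set against WT directly, the 5 min response differed for 1 of 44 members in the libraries labelled atf1Δ and for 1 of 44 in those labelled pcr1Δ, in both cases pac4. Of all genes 8.96% and 7.19% were called. For the libraries labelled clr4Δ 0 members differed (2.62% of all genes in either direction), with 9 at an unadjusted p under 0.05 and 1 by DESeq2. With replicates as a block the counts were 3, 3 and 9. With WT of series RNA1 alone they were 5, 8 and 10, where 994, 1016 and 846 of all genes were called. With WT of series RNA2 alone they were 1, 1 and 0. Leaving out replicate 2 labelled pcr1Δ at 0 min gave 2 for that comparison, and leaving out replicate 1 labelled clr4Δ at 5 min gave 1 for the last.

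The gene pac4 encodes a chaperone that helps to form the alpha ring. At 5 min it had 28.97, 21.8 and 25.8 CPM in the libraries labelled atf1Δ, against 45.7, 45.4 and 40.3 CPM at 0 min. In those labelled pcr1Δ it had 20.8, 22.9 and 21.5 CPM at 5 min, against 52.1, 39.5 and 45.0 CPM at 0 min. All heated libraries lay below all unheated ones. Pac4 mRNA fell by 0.78 on the log2 scale in those labelled atf1Δ (SE 0.11, adjusted p = 5.64e-07) and by 1.07 in those labelled pcr1Δ (SE 0.11, adjusted p = 1.8e-09). In those labelled clr4Δ it had 49.1, 45.1 and 43.8 CPM at 0 min, 46.1, 42.7 and 41.1 CPM at 2.5 min, and 47.1, 49.6 and 40.7 CPM at 5 min, with full overlap and a change of 0.00 (SE 0.10, adjusted p = 0.985).

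In WT RNA2 pac4 had 42.4, 40.4 and 48.6 CPM at 0 min, 43.8, 41.0 and 41.0 CPM at 2.5 min, and 48.9, 39.2 and 40.9 CPM at 5 min, also overlapping. In WT RNA1 it had 31.5, 28.7 and 33.6 CPM at 0 min, 41.0, 42.5 and 41.2 CPM at 5 min, and 30.3, 31.8 and 29.1 CPM at 25 min. There the 5 min libraries stood above the others, a rise of 0.41 (SE 0.10, adjusted p = 0.00141). At 0 min RNA1 was thus the lowest group, 0.49 below RNA2 on the log2 scale.

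The response of pac4 in the libraries labelled atf1Δ was 0.97 lower than in WT on the log2 scale (difference -0.97, SE 0.13, adjusted p = 8.39e-07), and in those labelled pcr1Δ 1.26 lower (-1.26, SE 0.13, adjusted p = 5.49e-09). With WT of series RNA2 alone the differences were -0.75 and -1.04. Within series RNA3, against the libraries labelled clr4Δ, they were -0.78 (SE 0.15, adjusted p = 7.85e-04) and -1.06 (SE 0.15, adjusted p = 1.28e-05). Of all genes 2.48% and 2.15% were called in these last comparisons, and pac4 was the 1 member called in each. With replicates as a block 3 and 2 members were called, where 760 and 494 of all genes were called in either direction. These 4 pac4 calls held in every alternative run. The gene model of pac4 (chromosome III, 927629 to 930409, minus strand, ASM294v2) overlaps that of swt1 on the other strand by 1810 of 2781 bases. Whether counting used the strand is not given in the sources used here, but rpt5, which lies wholly inside a gene of the other strand, averaged 3579 counts per library. In the same groups swt1 averaged 64.2 CPM at 5 min and 63.0 CPM at 0 min in the libraries labelled atf1Δ, and 66.8 CPM at 5 min and 65.9 CPM at 0 min in those labelled pcr1Δ. In WT RNA1 it averaged 56.6 CPM at 0 min, 46.4 CPM at 5 min and 60.6 CPM at 25 min. The part of swt1 reads in the pac4 values was not tested.

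**Figure D4:**
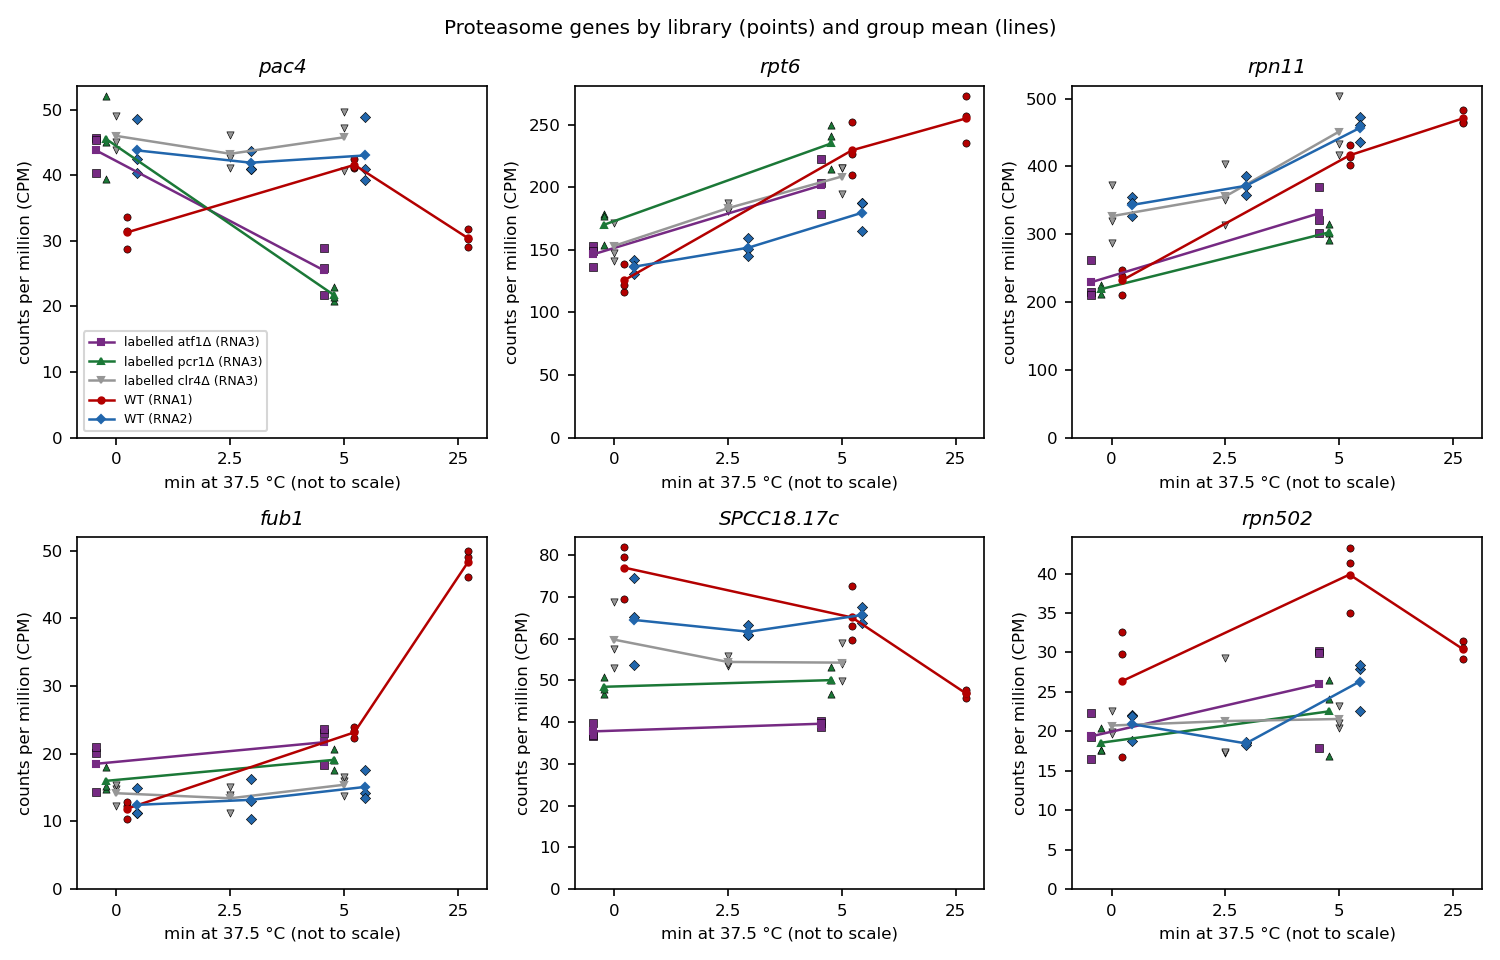
Level in CPM (vertical axes, from 0) of pac4, rpt6, rpn11, fub1, SPCC18.17c and rpn502 by time at 37.5 °C (horizontal axes, not to scale), with 1 point for each library and lines through group means, by label and series. For pac4 the libraries labelled atf1Δ and pcr1Δ lie between 20.8 and 28.97 CPM at 5 min, below every other library at that time.

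The bases before the annotated gene start are shown for the member with the differing response, for the 2 members with the largest rises at 5 min in WT RNA1, and for the members that hold the motif of Atf1 and Pcr1 or both forms of the heat shock element. Each run is 250 bases long, 5′ to 3′ on the strand of the gene, from the RefSeq genome of build ASM294v3, and ends at the base before the gene start of the RefSeq annotation. That annotation places starts differently from the gene models of the files, whose coordinates are given above: for 41 of 44 members the RefSeq start lies inside the model of the files, by 60 bases for pac4, 61 for fub1, 1 for rpt6, 30 for rpn12 and 25 for pre8. The last bases of each run are thus inside the gene by the files. Capitals mark a motif.
pac4 (chrIII:930350-930599, minus strand): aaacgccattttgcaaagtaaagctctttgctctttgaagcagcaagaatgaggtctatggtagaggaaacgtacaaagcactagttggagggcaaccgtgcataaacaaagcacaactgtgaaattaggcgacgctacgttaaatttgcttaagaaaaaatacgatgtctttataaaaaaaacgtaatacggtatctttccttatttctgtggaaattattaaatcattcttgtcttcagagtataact
fub1 (chrI:3732085-3732334, plus strand): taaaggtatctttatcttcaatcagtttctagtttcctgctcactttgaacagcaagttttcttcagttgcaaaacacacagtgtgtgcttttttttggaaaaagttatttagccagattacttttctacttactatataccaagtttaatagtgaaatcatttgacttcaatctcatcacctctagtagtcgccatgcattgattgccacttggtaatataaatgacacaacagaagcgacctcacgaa
rpt6 (chrII:2122817-2123066, minus strand): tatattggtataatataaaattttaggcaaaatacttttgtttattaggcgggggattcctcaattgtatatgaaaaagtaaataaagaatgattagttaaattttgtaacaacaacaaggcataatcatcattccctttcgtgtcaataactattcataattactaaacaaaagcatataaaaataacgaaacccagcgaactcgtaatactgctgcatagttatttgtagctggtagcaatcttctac
rpn12 (chrII:4214727-4214976, plus strand): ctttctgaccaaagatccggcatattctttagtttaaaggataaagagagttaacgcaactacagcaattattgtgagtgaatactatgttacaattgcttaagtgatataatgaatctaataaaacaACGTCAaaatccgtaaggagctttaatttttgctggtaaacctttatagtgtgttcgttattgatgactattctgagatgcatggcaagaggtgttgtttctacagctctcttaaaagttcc
pre8 (chrIII:1777844-1778093, plus strand): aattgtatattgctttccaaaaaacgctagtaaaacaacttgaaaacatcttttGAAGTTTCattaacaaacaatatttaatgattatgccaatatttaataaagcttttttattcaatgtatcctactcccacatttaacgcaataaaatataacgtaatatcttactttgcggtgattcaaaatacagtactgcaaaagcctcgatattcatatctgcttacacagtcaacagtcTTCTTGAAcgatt

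Motifs were searched on both strands in the window from 250 bases before to 50 after the RefSeq start of each gene. The core of the Atf1 and Pcr1 site, TGACGT, was in 1 of 44 members (2.27%), against 302 of 5112 promoters of all genes (5.91%). That member is rpn12, where it stands on the other strand. The heat shock elements GAANNTTC and TTCNNGAA, which bind the heat shock factor, were each in 3 members (6.82%), against 568 and 522 of the 5112 promoters. Either form was in 5 members (11.4% against 19.9%), and pre8, an alpha subunit, held both. The HomolD box CAGTCACA was in 1 member (2.27% against 2.68%), pre10. GGTGGCAAA, the element through which Rpn4 controls proteasome genes in Saccharomyces cerevisiae, was in 0 members and in 5 promoters of all genes. The windows of pac4, fub1 and rpt6 held none of these letters. A match is only a match of letters, and a motif farther from the start would not be seen.

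Before heat, proteasome genes were mostly higher in the libraries labelled atf1Δ than in WT. There 29 members were higher and 2 lower than the mean of both WT series (22.7% of all genes higher, 21.8% lower), with a median of 0.26 against 0.00 for all genes. In these unheated libraries atf1 itself averaged 128.5 CPM, against 130.5 CPM in WT RNA1. All 14 core genes were higher, against 2 of 5 base subunits without ATPase activity and 3 of 6 ATPases. In those labelled pcr1Δ 22 members were higher and 4 lower (19.1% and 19.2% of all genes), with a median of 0.16. In those labelled clr4Δ 6 were higher and 2 lower (14.3% and 10.3%), with a median of 0.03. With WT of series RNA1 alone the counts were 27 and 1, 21 and 2, and 11 and 3. With WT of series RNA2 alone they were 24 and 4, 14 and 5, and 0 and 0. For clr4Δ the fits with RNA1 alone and RNA2 alone called 2316 and 230 of all genes in either direction. Without replicate 3 of WT RNA2, or replicate 1 or 2 labelled clr4Δ, all at 0 min, 5, 3 and 5 members were called for clr4Δ, and scaled to library totals 2 were higher and 2 lower.

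Among the core, base and lid genes the largest of these differences was that of pam1, with 180, 187 and 197 CPM in the libraries labelled atf1Δ and 159, 167 and 172 CPM in those labelled pcr1Δ. The 6 WT libraries had 109 to 141 CPM, below all of them. The differences were 0.65 (SE 0.07, adjusted p = 3.55e-09) and 0.47 (SE 0.07, adjusted p = 2.54e-06). The beta 2 gene pup1 had 246, 251 and 256 CPM in those labelled atf1Δ, against 154 to 186 CPM in the WT libraries, a difference of 0.54 (SE 0.06, adjusted p = 6.96e-09). For pcr1Δ it was 0.40 (SE 0.06, adjusted p = 2.16e-06). Also among the smallest p values were pre9 (0.51, SE 0.07) and rpn7 (0.39, SE 0.06) for atf1Δ, and pre4 (0.41, SE 0.08) and rpt6 (0.38, SE 0.08) for pcr1Δ.

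The opposite direction was shown by SPCC18.17c, with 39.7, 36.7 and 36.9 CPM in the libraries labelled atf1Δ and 50.8, 46.7 and 47.8 CPM in those labelled pcr1Δ. WT ranged from 53.7 to 81.9 CPM, above all of these. The differences were -0.90 (SE 0.08, adjusted p = 1.68e-10) and -0.54 (SE 0.08, adjusted p = 2.86e-06). A member chosen after its values were seen, rpn11, was lower as well, by -0.30 (SE 0.08, adjusted p = 0.00452) in those labelled atf1Δ. Its 262, 214 and 211 CPM there overlapped the 239, 247 and 210 CPM of WT RNA1 and lay below the 355, 327 and 347 CPM of WT RNA2. For clr4Δ the smallest p values were those of pup3 (0.41, SE 0.08, adjusted p = 3.45e-04), fub2, pac4 (0.31, SE 0.09), pre9 (-0.25, SE 0.07) and SPCC18.17c (-0.24, SE 0.08). None of these 5 was called with WT of series RNA2 alone. The counts behind fub2 were 5, 23 and 10 in the libraries labelled clr4Δ and 2, 0 and 0 in those labelled pcr1Δ, against 2 to 8 in WT. No fold is given for it, and its call for clr4Δ was lost without replicate 2. Leaving out replicate 1 labelled clr4Δ ended the calls of pac4 (0.26) and pre9 (-0.21). That of SPCC18.17c was lost without any of 5 libraries: replicate 2 or 3 labelled clr4Δ (-0.23 and -0.16), replicate 1 or 2 of WT RNA1 (-0.23 and -0.22), or replicate 3 of WT RNA2 (-0.18).

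Other genes of the ubiquitin pathway were counted from lists written from general knowledge. Of the genes for Cdc48, the ATPase that extracts ubiquitinated proteins for the proteasome, and its cofactors, 8 of 8 measured rose in WT RNA1 at 5 min (median 0.96) and 8 of 8 at 25 min (median 1.29), where 24.9% and 33.9% of all genes were called higher. The gene cdc48 itself changed by 1.33 (SE 0.12) and 1.83 (SE 0.12). In WT RNA2 at 5 min 7 of 8 rose (median 0.47), where 14.1% of all genes were called higher. The response of 4 of these 8 was lower in the libraries labelled atf1Δ than in WT, and of 1 in those labelled pcr1Δ, ubx4, where 8.96% and 7.19% of all genes were called in either direction. WT is here the mean of both series, and label and series cannot be told apart. For this list these counts were not repeated with each WT series alone. Of 12 ubiquitin ligases of protein quality control 9 rose at 5 min in RNA1 (24.9% of all genes higher), led by san1, a nuclear ligase for misfolded proteins, at 1.43 (SE 0.12). Of 17 genes for ubiquitin and its conjugation 9 rose at 5 min in RNA1, where again 24.9% of all genes were called higher. At 25 min 9 were higher and 5 lower (33.9% and 33.5% of all genes), with the polyubiquitin gene ubi4 at 1.59 (SE 0.09) and ubi2, a fusion of ubiquitin to a ribosomal protein, at -1.32 (SE 0.12). Of 17 shuttles and deubiquitinases 8 rose and 2 fell at 5 min in RNA1 (24.9% of all genes higher, 23.5% lower), with dph1, a shuttle that carries ubiquitinated proteins to the proteasome, at -1.22 (SE 0.13).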

How the data were processed

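Of 261 samples the 39 mRNA-seq libraries were used, and the 198 ChIP and 24 PRO samples were not analysed here. The authors deposited raw read counts per gene and, for 18 libraries of series RNA2 and RNA3, a second table whose signal is read depth summed over each gene, with no normalization found. Per the submitters' processing notes, the tools were STAR, Bowtie 0.12.9, Trimmomatic 0.33, deepTools and bedtools 2.17.0, with build ASM294v2. Which tool made which file is not given in the sources used here. Per the labels' protocols, RNA was extracted with hot phenol and libraries made with the KAPA mRNA HyperPrep kit. The count files also list reads outside genes, which were left out: those at several places were 6.8 to 21.2% of a library, those in no feature 1.19 to 2.49%, ambiguous ones 0.709 to 1.37% and unmapped ones 0.2 to 0.993%. Product names, symbols and promoters came from RefSeq, build ASM294v3.

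Counts were fitted with edgeR 4.0.16 in R 4.3.3 (TMM scaling, filterByExpr with a minimum count of 10 and a minimum total of 15), with 1 mean for each of 13 groups of 3 libraries and 26 residual degrees of freedom. Contrasts were tested with the quasi-likelihood test, two-sided. P-values were adjusted by the Benjamini-Hochberg method over the 6172 genes that passed the filter, with a threshold of 0.05. WT in the deletion comparisons is the mean of both WT series. The second table was tested with limma 3.58.1 (limma-trend) on log2(signal + 50) over the 6150 genes that averaged 500 or more, so its fold changes understate those of low genes. Scripts were tested on simulated data. Alternatives were library totals, DESeq2 1.42.0 and its size factors, no filter on low counts, the groups of a comparison alone, the 35 subunits of the particle alone, replicate blocks, the second table, and each replicate left out. The comparisons of the WT series with each other, WT of 1 series alone, and leaving out the 3 libraries with most reads at several places were chosen after seeing the data.

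Replicate numbers come from the labels, which do not say what they share. Deviations from group means correlated at over 0.1 for every same-numbered pair in WT RNA1 (9 of 9), WT RNA2 (9 of 9), clr4Δ (9 of 9) and pcr1Δ (3 of 3), and for 1 of 3 pairs in atf1Δ. In WT RNA1, WT RNA2 and clr4Δ every same-numbered pair also lay above every pair of different numbers, so there the numbers pair the libraries. In pcr1Δ a pair of different numbers reached 0.188, above the lowest same-numbered pair at 0.129, so pairing is not clear there or in atf1Δ. Results of the replicate block are given where they move a count by over 1.5 times.

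The members and lists were chosen with earlier results of these data known. Genes named are, in each class, those with the highest and lowest change in WT RNA1 at 5 and 25 min, members that went against most of those called, up to 5 with the smallest p in comparisons at 0 min and of responses, the members at the highest and lowest level, and the deleted genes. The members of counts of 5 or fewer, the course of pam1, fub1 in RNA2, the ATPase rpt5 and the promoters shown were named after their values were seen.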

Additional observations from a re-analysis of the deposited data

Results flagged for a closer look

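The heat response of pac4 differed between labels in a test of the difference itself. The response at 5 min was lower by the log2 differences of -0.97 (libraries labelled atf1Δ against WT) and -1.26 (labelled pcr1Δ against WT). Within series RNA3 the differences were -0.78 (atf1Δ against clr4Δ) and -1.06 (pcr1Δ against clr4Δ). All heated libraries labelled atf1Δ or pcr1Δ, 3 of 3 each, lay below the unheated ones of their label.

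The 5 min response differed between WT of series RNA1 and of series RNA2 for 5 members. The log2 differences were 0.47 for rpt6, 0.43 for rpn11, 0.41 for rpn6, 0.39 for pre3 and 0.37 for rpt3, all larger in RNA1. Scaled to library totals, and fitted on these groups alone, 0 members were called, and leaving out 1 library gave 1 to 8. The call of rpn6 held in all 12 fits that left out 1 library. Calls were lost in 2 of 12 for rpt6, 4 for rpt3, 7 for pre3 and 8 for rpn11. These comparisons were chosen after seeing the data.

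All groups hold 3 libraries, so single libraries far from their group were not tested for.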

How the results depend on the processing

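Deletion names stand for labels here, and each label in a comparison with WT also stands for its series. Scaled to library totals, members called were 20 for WT RNA1 at 5 against 0 min, 27 at 25 against 5 min, 1 for WT RNA2 at 5 against 2.5 min and 6 at 5 against 0 min, 9 for atf1Δ, 10 for pcr1Δ and 15 for clr4Δ at 5 against 0 min, 4 for unheated clr4Δ and 0 for the response of RNA1 minus RNA2. Fitted on the groups of a comparison alone, they were 22 (RNA1, 25 against 5 min), 0 (RNA2, 5 against 2.5 min), 11 (RNA2, 5 against 0 min), 8 (clr4Δ, 5 against 0 min), 3 (unheated clr4Δ), 4 (unheated RNA1 against RNA2) and 0 (response of RNA1 minus RNA2). Among the 35 subunits alone, which leave out pac4, they were 7 (RNA1, 25 against 5 min), 4 (unheated clr4Δ) and 0 for the responses of atf1Δ and pcr1Δ against WT and against clr4Δ. DESeq2 gave 12 (RNA2, 5 against 2.5 min), 1 (clr4Δ, 2.5 against 0 min) and 1 (response of clr4Δ), and the summed read depth gave 2 (RNA2, 5 against 2.5 min). With WT RNA1 alone the counts were 14 for unheated clr4Δ and 5, 8 and 10 for the responses of atf1Δ, pcr1Δ and clr4Δ, and with WT RNA2 alone 0 for unheated clr4Δ. Without the 3 libraries with most reads at several places they were 3 (RNA2, 5 against 2.5 min) and 2 (response of RNA1 minus RNA2). The cause was not tested.

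With the replicate number as a block within each course, members called were 23 for RNA1 at 25 against 5 min, 4 and 19 for RNA2 at 2.5 against 0 and at 5 against 2.5 min, 6 for clr4Δ at 2.5 against 0 min, 3, 3 and 9 for the responses of atf1Δ, pcr1Δ and clr4Δ against WT, 3 and 2 for those of atf1Δ and pcr1Δ against clr4Δ, and 17 for RNA1 minus RNA2. No other count moved by over 1.5 times under that block. In atf1Δ the libraries share only a number, and in pcr1Δ their pairing is not clear.

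With 1 library left out, counts ran from 1 to 12 (RNA2, 5 against 2.5 min), from 0 to 1 (clr4Δ, 2.5 against 0 min), from 3 to 8 (unheated clr4Δ), from 1 to 2 (response of pcr1Δ), from 0 to 1 (response of clr4Δ), from 5 to 10 (unheated RNA1 against RNA2) and from 1 to 8 (response of RNA1 minus RNA2). Elsewhere no count moved by over 1.5 times, with 30 to 34 for RNA1 at 5 against 0 min and 16 to 23 for RNA2.

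Of 976 alternative values for 64 comparisons of named members, 884 kept their direction and their side of the threshold, 84 were no longer called and 8 changed sign, none of these called. Those were, scaled to library totals, scl1 (-0.036), rpn1301 (-0.164) and dss1 (-0.098) at 5 min in RNA1, and scl1 (0.019) and pts1 (0.037) at 25 min. For pts1 at 25 min, leaving out single libraries gave -0.151 to 0.055, with 0.055 and 0.033 without replicate 1 or 2 at 0 min. It was 0.017 without the 3 libraries with most reads at several places. The lowest member, fub2, had 0 to 23 counts per library.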
